A study of Mus musculus with 8 samples.

Results

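The mucosa that lines the mouth differs by site, and the tissue compared here came from 4 of them in wild-type C57BL/6J mice: the dorsal tongue (its upper surface), the hard palate, the buccal mucosa (the inner cheek) and the ventral tongue (its underside). Dorsal tongue and hard palate, the surfaces that meet food during chewing, formed 1 side of the comparison with 4 samples. Buccal mucosa and ventral tongue, the softer linings, formed the other side with 4 samples, so that all 8 samples of the series entered, 2 replicates per site. The sides were set by site and not by measured values. The comparison and the gene lists were chosen with earlier results of these data known. UMI counts of each sample were summed over its 20 sections of 14 µm. A UMI (unique molecular identifier) is a random tag that lets each captured transcript be counted once, and the libraries were made with CEL-seq2, which counts transcripts by their 3' ends. No sample carried a mutation or received a treatment, per the labels. The labels do not say which animals the replicates came from.

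Stratified squamous epithelium renews from a basal layer, and its cells build keratin filaments, desmosomes and finally a cornified envelope as they move to the surface. In masticatory mucosa this epithelium is firmly keratinized and tied to the bone or muscle under it, while lining mucosa is more pliable and, in humans, mostly not keratinized; in mice the lining surfaces keratinize as well. The dorsal tongue is covered by filiform papillae, whose cells make hard keratins of the hair type, and many genes of the cornified envelope sit together on mouse chromosome 3 in the epidermal differentiation complex.

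Totals ran from 7830471 UMIs in buccal mucosa replicate 2 to 26376536 in hard palate replicate 2. Buccal mucosa replicate 2 stood apart from the other 7 samples in what it held. The summed level of 20 genes of stratified keratinocytes was 855.6 CPM there (UMI counts relative to library sizes that were scaled by edgeR's TMM method) and 9545 to 20290 CPM elsewhere. The summed level of 33 salivary and mucous gland genes was 34510 CPM in that sample against 176.1 to 1284 CPM in the others, and that of 50 skeletal muscle genes was 80160 CPM against 568.8 to 47270 CPM. Results are therefore given with this sample and without it, in an 8-sample and a 7-sample fit. Levels of single genes in UMIs are CPM relative to library sizes that were scaled by edgeR's TMM method. Summed levels, levels by section and levels in the authors' estimated transcripts are relative to plain totals. In bulk samples like these, fewer cells of a type and less RNA per cell cannot be told apart. Each site had 1 sample with Xist above the Y-linked genes and 1 with the reverse, with 2 of each per side. The 2 replicates of a site thus came from animals of different sex, and the spread between them includes that difference.

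The names masticatory and lining fitted some defining genes and not others. Krt76, a keratin of the upper layers of palate and tongue epithelium, was at 3204 and 3734 in dorsal tongue, 3755 and 2658 in hard palate, 1688 and 42 in buccal mucosa and 1487 and 2291 CPM in ventral tongue, in each case replicates 1 and 2 in turn. In UMIs all 4 dorsal tongue and hard palate samples thus lay above the other 4. Krt76 held at least 3500 UMIs in 53 sections, 17 and 20 of them in hard palate replicates 1 and 2, which compresses this contrast. In the authors' estimated transcripts, given below, the order of the sides held, with palate far above dorsal tongue. Dorsal tongue lay closer there to buccal mucosa replicate 1 than to palate. Krt4 and Krt13, the keratin pair taken as the mark of lining epithelium, were too abundant to compare by UMIs. UMI counts of a gene in a section level off near the number of distinct UMIs, and Krt13 held at least 3500 UMIs in 131 sections and Krt4 in 114. The authors' estimated transcripts correct for this, though least surely for counts at the limit. On that scale Krt13 was at 37097 and 39348 in dorsal tongue, 27821 and 31071 in hard palate, 38705 and 51.5 in buccal mucosa and 37513 and 36040.0 CPM in ventral tongue. Krt4 was at 5257 and 10234 CPM in hard palate and at 30614 to 42080 CPM in the other 5 samples outside buccal mucosa replicate 2. In both keratins palate lay below those 5 samples, dorsal tongue included, and neither difference between the sides passed (edgeR quasi-likelihood test on estimated transcripts, Benjamini-Hochberg adjusted p = 0.899 for Krt13 and 0.812 for Krt4). Lor, the main protein of the cornified envelope, held at least 3500 UMIs in 85 sections, and in estimated transcripts it was at 13559 and 11030.0 in dorsal tongue, 4036 and 6253 in hard palate, 8063 and 9.21 in buccal mucosa and 5092 and 6468 CPM in ventral tongue. Dorsal tongue was highest, while palate overlapped cheek and ventral tongue (adjusted p = 0.763). Krt1 and Krt2, keratins of cornified epidermis, were high in 1 buccal sample as well as in palate: Krt1 was at 3.31 and 11.7 in dorsal tongue, 305 and 215 in hard palate, 297 and 0.758 in buccal mucosa and 4.10 and 19.9 CPM in ventral tongue. The sides are therefore called by their sites below.

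Of 18609 genes tested, 1006 (5.41%) were higher in every dorsal tongue and hard palate sample than in any buccal mucosa or ventral tongue sample, and 1124 (6.04%) were lower in every one. This count of genes that do not overlap between the sides involves no test. Without buccal mucosa replicate 2, 1175 of the same genes (6.31%) were higher and 1311 (7.04%) were lower in all 4 samples against the other 3. They include all 1006 and 1124, since leaving out a sample on the same scale cannot undo a separation. Filtered and scaled anew without that sample, 1198 and 1378 of 19744 genes were separated, of which 975 and 1121 were already separated with 8 samples. In edgeR's quasi-likelihood test of the mean difference between the sides, with site as the term of the model, 165 genes (0.887%) were higher in dorsal tongue and hard palate and 742 (3.99%) were lower at an adjusted p under 0.05; with libraries scaled to keratinocyte genes these were 15 and 3024. Without buccal mucosa replicate 2, 386 (2.07%) of these genes were called higher and 1065 (5.72%) lower; 154 and 732 of the calls were shared. Both criteria, no overlap and the adjusted p, held for 125 genes (0.672%) higher and 307 (1.65%) lower. The calls needed both dorsal tongue samples: without either one, 0 genes passed in either direction, with 869 higher and 1765 lower at an unadjusted p under 0.05 without replicate 1, and 962 and 1901 without replicate 2, while DESeq2 called 609 and 1722 on all 8 samples. Leaving out another sample gave 18 higher and 181 lower (hard palate replicate 1), 59 and 226 (hard palate replicate 2), 8 and 149 (ventral tongue replicate 1), 12 and 203 (ventral tongue replicate 2), and 2970 and 2776 (buccal mucosa replicate 1). The loss without a dorsal tongue sample held for the 45 of the 125 named genes that passed with 8 samples: none passed without either dorsal tongue sample. A model with the side alone, which leaves the differences between sites in the error, called 0 genes, with 1238 higher and 1784 lower at an unadjusted p under 0.05.

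The 15 genes that stood furthest above the other side, by the gap between the lowest dorsal tongue or palate sample and the highest of the others, were Tmem229b, 4930438A08Rik, Sprr2h, Crnn, Fetub, Il1f5, Spink7, Serpina12, Krt17, Bpifa1, Dsc1, Ctnnd2, Cdhr1, Spire1 and Tdh. Several of them, such as Sprr2h, Crnn, Krt17 and Dsc1, are genes of differentiating stratified epithelium. They were chosen by these same values, so that their direction within the tongue and within palate and cheek is fixed by the choice. By edgeR's test 6 of the 15 passed with 8 samples and 15 of 15 passed without buccal mucosa replicate 2, which describes the choice.

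Tmem229b, which encodes a membrane protein, was at 145 and 133 in dorsal tongue, 163 and 145 in hard palate, 17 and 8.59 in buccal mucosa and 28.1 and 31.5 CPM in ventral tongue. Every dorsal tongue and palate sample exceeded every other sample, and the change passed the test. Tmem229b had a log2 fold change of 2.90 ± 0.27 SE (adjusted p = 0.00692). For Tmem229b the 7-sample log2 fold change was 2.69 ± 0.18 SE (adjusted p = 0.000959). The gene lies at chr12:78961795-79007627 on the minus strand of GRCm38, the build named for these files. 4930438A08Rik, a protein-coding gene known only by its clone name, was at 17.8 and 21.2 in dorsal tongue, 50.3 and 23.6 in hard palate, 0.683 and 1.39 in buccal mucosa and 2.15 and 4.38 CPM in ventral tongue. For 4930438A08Rik the log2 fold change was 3.89 ± 0.42 SE (adjusted p = 0.0078). Its level was highest in hard palate replicate 1 and lowest in both cheek samples. Spire1, whose protein nucleates actin filaments, was at 59.4 and 53.6 in dorsal tongue, 41.3 and 46.2 in hard palate, 11 and 11.4 in buccal mucosa and 14.4 and 16.9 CPM in ventral tongue, an even difference in tongue and in palate and cheek. In Spire1 the log2 fold change came to 1.91 ± 0.17 SE (adjusted p = 0.00692). With libraries scaled to keratinocyte genes it was -0.023, where the median of all genes moved by -1.92. Ctnnd2, a delta-catenin that binds cadherins at cell junctions, was at 38.4 to 60.3 CPM in dorsal tongue and hard palate against 7.07 to 14.6. Ctnnd2 had a log2 fold change of 2.10 ± 0.28 SE (adjusted p = 0.0125). Other annotated genes overlap it, and with no strand setting stated for the counting, its reads cannot be told apart from theirs.

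Bpifa1, a secreted protein of mucosal surfaces with antibacterial activity, was low everywhere outside the palate, at 4.26 and 5.02 in dorsal tongue, 35.7 and 16.6 in hard palate, 0.399 and 0.126 in buccal mucosa and 0.0672 and 1.11 CPM in ventral tongue. Bpifa1 had a log2 fold change of 4.67 ± 0.72 SE (adjusted p = 0.0183). Serpina12, an adipokine of the serpin family also called vaspin, was at 81 and 108 in dorsal tongue, 83.6 and 38 in hard palate, 7.86 and 0.126 in buccal mucosa and 7.25 and 13.8 CPM in ventral tongue. It did not pass with 8 samples (adjusted p = 0.0691) and did without buccal mucosa replicate 2. In Serpina12 the 7-sample log2 fold change came to 3.05 ± 0.42 SE (adjusted p = 0.00785). Spink7, a Kazal-type inhibitor of serine proteases known from human oesophageal epithelium, was at 75.8 and 70.8 in dorsal tongue, 156 and 30.8 in hard palate, 3.81 and 0 in buccal mucosa and 6.78 and 11.7 CPM in ventral tongue, where hard palate replicate 2 came nearest to the other side and 0 UMIs in buccal mucosa replicate 2 (by counting error alone, 0 UMIs is compatible with as many as 3). It missed the threshold with 8 samples (adjusted p = 0.0549). Spink7 had a 7-sample log2 fold change of 3.79 ± 0.67 SE (adjusted p = 0.0197). Fetub, the protease inhibitor fetuin-B, was at 818 and 1058 in dorsal tongue, 1116 and 918 in hard palate, 173 and 2.53 in buccal mucosa and 119.5 and 286 CPM in ventral tongue, and passed without buccal mucosa replicate 2. For Fetub the 7-sample log2 fold change was 2.37 ± 0.36 SE (adjusted p = 0.0111). Spink7 overlaps a neighbouring gene, so its reads are uncertain between the 2 annotations.

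**Figure D1:**
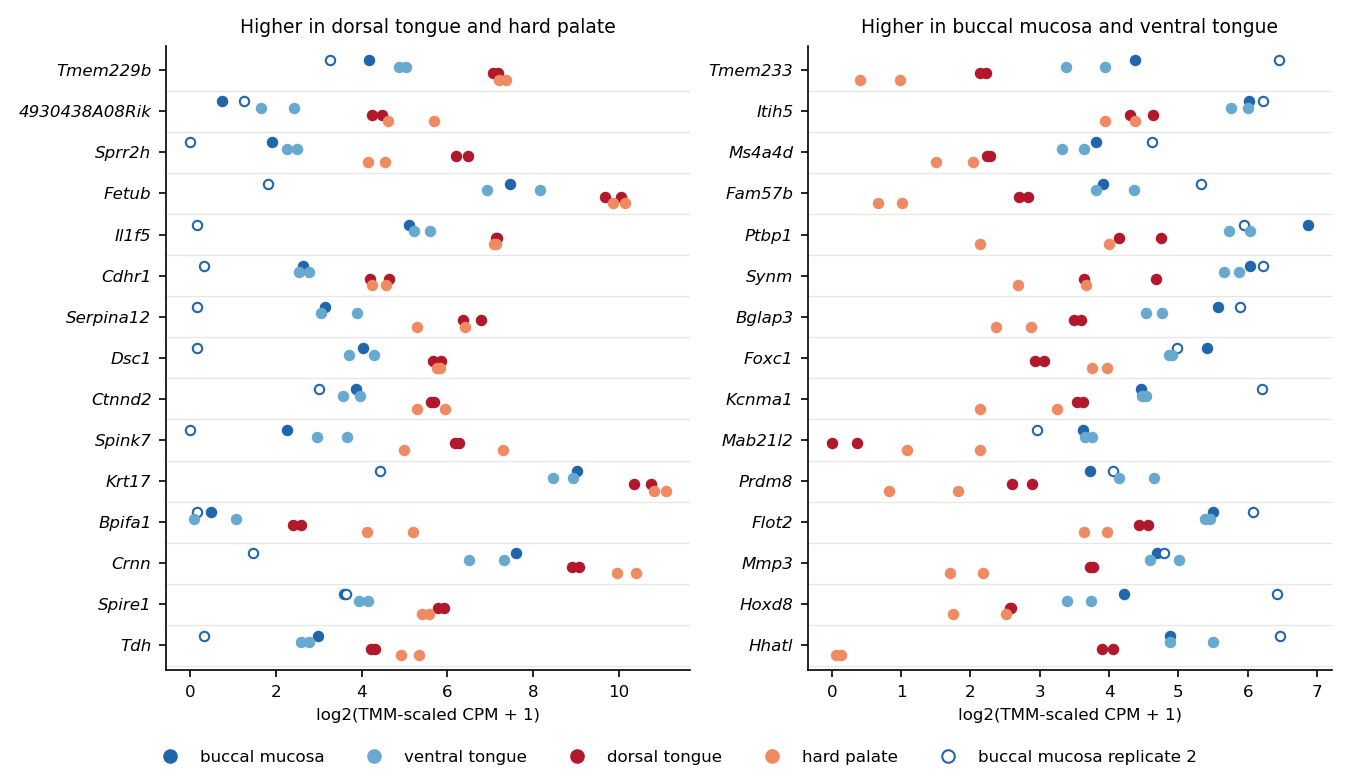
Level of the 15 genes furthest above (left) and the 15 furthest below (right) in dorsal tongue and hard palate, as log2 of TMM-scaled CPM + 1, 1 point per sample, with buccal mucosa replicate 2 as an open symbol. The dorsal tongue and palate points lie on 1 side of all others for every gene shown, as the choice of genes requires, and the open symbol is the lowest point for genes such as Fetub and Crnn.

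Of the 36 gene lists examined, that of the cornified envelope had the largest number of members higher in all 4 dorsal tongue and palate samples. The envelope is the cross-linked protein shell of the surface cells. By share, the 20 keratinocyte genes (55%), the Ly6 and Slurp family (30%) and the BMP and TGF-beta pathway (28.9%) stood above it. Of 60 envelope genes tested, 16 (26.7%) were higher in all 4 samples and 0 lower, beside 5.41% and 6.04% of all genes. Called by edgeR's test were 5 higher and 0 lower with 8 samples, and 21 higher and 2 lower without buccal mucosa replicate 2. The median log2 fold change of the list was 1.01 with 8 samples and 0.61 without that sample, beside -0.0028 and 0.0023 for all genes. Scaled to keratinocyte genes in those 7 samples, a setting added after the data were seen, the median was 0.19 where that of all genes was -0.41; 5 members were then higher and 8 lower without overlap, and 19 were called higher and 7 lower.

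Ivl (involucrin), an early scaffold of the envelope, was at 11.7 and 13.2 in dorsal tongue, 7.27 and 8.25 in hard palate, 0.455 and 0.758 in buccal mucosa and 0.940 and 2.62 CPM in ventral tongue, and rose on the dorsal tongue and palate side. In Ivl the log2 fold change came to 3.26 ± 0.39 SE (adjusted p = 0.00998). Flg (filaggrin), which bundles keratin filaments in the granular layer, was at 706 and 654 in dorsal tongue, 294 and 717 in hard palate, 45.3 and 1.64 in buccal mucosa and 79.4 and 124 CPM in ventral tongue. The groups did not overlap, yet the test was passed only without buccal mucosa replicate 2 (adjusted p = 0.078 with it). In Flg the 7-sample log2 fold change came to 3.10 ± 0.40 SE (adjusted p = 0.00603). An annotated ribosomal pseudogene overlaps Flg on the same strand, so its reads are uncertain. Sprr2h, a small proline-rich precursor of the envelope, was at 87.4 and 72.1 in dorsal tongue, 22.2 and 16.9 in hard palate, 2.79 and 0 in buccal mucosa and 3.83 and 4.63 CPM in ventral tongue. It passed in both fits. For Sprr2h the log2 fold change was 3.94 ± 0.73 SE (adjusted p = 0.0324). Sprr2h had a 7-sample log2 fold change of 3.51 ± 0.24 SE (adjusted p = 0.000963). Crnn (cornulin), an S100-fused protein of the upper layers, was at 474 and 538 in dorsal tongue, 988 and 1344 in hard palate, 193 and 1.77 in buccal mucosa and 89.1 and 157 CPM in ventral tongue, highest in palate. For Crnn the 7-sample log2 fold change was 2.31 ± 0.27 SE (adjusted p = 0.00459). Lce1j, a late envelope protein, was at 538 and 262 in dorsal tongue, 242 and 336 in hard palate, 32.3 and 0.126 in buccal mucosa and 105 and 108 CPM in ventral tongue. Lce1j had a 7-sample log2 fold change of 2.53 ± 0.32 SE (adjusted p = 0.00573). The Sprr2 and Lce1 families hold near-identical members, so that values between members are uncertain.

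Not all envelope genes were higher on that side, and the 2 called lower in the 7-sample fit were Sprr1a and Lce3f. Sprr1a, a small proline-rich envelope precursor, was at 418 and 507 in dorsal tongue, 575 and 954 in hard palate, 2165 and 9.60 in buccal mucosa and 2439 and 1369 CPM in ventral tongue. Leaving out buccal mucosa replicate 2, the other 3 cheek and ventral tongue samples lay above all 4 of the others, and Sprr1a fell on the dorsal tongue and palate side. For Sprr1a the 7-sample log2 fold change was -1.78 ± 0.28 SE (adjusted p = 0.0128). Sprr3, its neighbour in the complex and made in oesophageal epithelium, was at 1946 and 1665 in dorsal tongue, 851 and 1697 in hard palate, 3235 and 4.55 in buccal mucosa and 3747 and 2818 CPM in ventral tongue. The same 3 samples were again the highest, with counts near the UMI limit in 15 sections, but the difference did not pass. In Sprr3 the 7-sample log2 fold change came to -1.11 ± 0.27 SE (adjusted p = 0.0558). Sprr1b, close to both, was at 1001 and 1348 in dorsal tongue, 526 and 415 in hard palate, 396 and 0.884 in buccal mucosa and 277 and 394 CPM in ventral tongue, higher in all 4 samples. Sprr1a, Sprr1b and Sprr3 were picked after their values were seen.

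These genes sit close together. Between S100a1 and S100a10 on chromosome 3 (chr3:90511034-93555080, GRCm38), 72 genes were tested, of which 19 (26.4%) were higher in every dorsal tongue and palate sample and 1 (1.39%), S100a13, was lower, beside 5.41% and 6.04% of all genes. In 7 samples the counts were 19 (26.4%) and 4 (5.56%), beside 6.31% and 7.04%, and the median log2 fold change went from 1.26 to 0.80. The 19 included 7 Lce1 genes, 4 Sprr genes, Ivl, Kprp, Crnn, Flg, S100a11 and the gene entries 2310046K23Rik, Gm35439 and Gm38119. Among the Sprr genes, Sprr2e was at 10.6 and 8.96 CPM in hard palate but near 0 elsewhere. Its 0.158 and 0.282 CPM in dorsal tongue barely exceeded the 0.151 CPM of ventral tongue replicate 2. S100a10 itself, a calcium-binding protein found in most cells, was at 472 to 544 CPM in dorsal tongue and hard palate against 243 to 636 and overlapped with 8 samples.

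**Figure D2:**
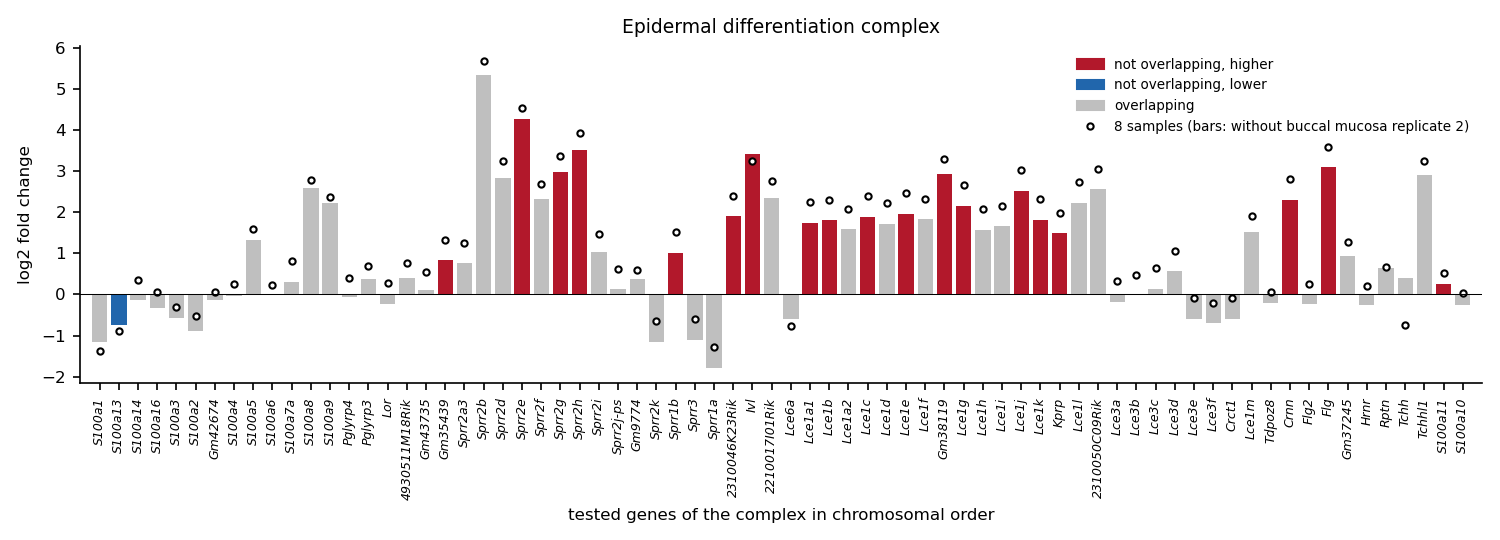
Log2 fold change (dorsal tongue and hard palate against buccal mucosa and ventral tongue) of the tested genes of the epidermal differentiation complex, in their order along the chromosome; bars leave out buccal mucosa replicate 2 and open circles use all 8 samples. The Lce1 genes and Flg stand above 0 in both, whereas Sprr1a and Sprr3 stand below it.

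The promoters of 5 of these genes are shown because members that moved together differed in the short motifs they hold near the start. Each runs from 250 bases before to 50 bases after the RefSeq start on GRCm38.p6, 5' to 3' on the gene's strand, with matches in capitals to TGANTCA (the letters bound by AP-1-type factors, with N for any base) or to TATAAA (the TATA box letters), on either strand; no 2 printed matches overlap. Ivl is on the minus strand (chr3:92573686-92573985), Sprr2h on the plus strand (chr3:92385435-92385734), Crnn on the plus strand (chr3:93144539-93144838), Flg on the plus strand (chr3:93273296-93273595) and Lce1j on the minus strand (chr3:92790465-92790764).
Ivl: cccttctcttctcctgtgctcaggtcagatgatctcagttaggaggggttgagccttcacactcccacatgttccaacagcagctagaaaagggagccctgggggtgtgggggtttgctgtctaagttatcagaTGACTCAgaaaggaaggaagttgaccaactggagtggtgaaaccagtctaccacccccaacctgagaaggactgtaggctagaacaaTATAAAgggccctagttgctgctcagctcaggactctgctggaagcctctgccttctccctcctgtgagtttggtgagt
Sprr2h: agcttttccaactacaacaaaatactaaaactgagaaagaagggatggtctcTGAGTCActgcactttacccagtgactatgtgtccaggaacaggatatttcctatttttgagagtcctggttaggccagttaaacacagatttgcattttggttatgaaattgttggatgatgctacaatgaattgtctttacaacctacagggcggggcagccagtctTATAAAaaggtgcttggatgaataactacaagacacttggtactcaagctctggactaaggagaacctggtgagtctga
Crnn: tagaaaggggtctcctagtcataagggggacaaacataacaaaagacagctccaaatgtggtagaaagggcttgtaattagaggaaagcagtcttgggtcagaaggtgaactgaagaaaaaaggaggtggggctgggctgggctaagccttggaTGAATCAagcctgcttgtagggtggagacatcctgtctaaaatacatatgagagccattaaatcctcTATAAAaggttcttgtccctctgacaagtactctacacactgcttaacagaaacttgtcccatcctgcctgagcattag
Flg: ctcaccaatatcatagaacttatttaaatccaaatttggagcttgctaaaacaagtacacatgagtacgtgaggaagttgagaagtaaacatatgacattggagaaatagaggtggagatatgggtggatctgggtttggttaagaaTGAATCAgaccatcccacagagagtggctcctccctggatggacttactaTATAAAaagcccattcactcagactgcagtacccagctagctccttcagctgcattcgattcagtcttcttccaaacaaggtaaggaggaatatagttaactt
Lce1j: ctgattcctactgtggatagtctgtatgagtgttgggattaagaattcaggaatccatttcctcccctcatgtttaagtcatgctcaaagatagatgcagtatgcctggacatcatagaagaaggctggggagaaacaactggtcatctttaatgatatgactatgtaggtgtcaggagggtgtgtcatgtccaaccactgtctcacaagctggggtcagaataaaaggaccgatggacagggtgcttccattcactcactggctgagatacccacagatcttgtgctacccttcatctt
Counted from the start, TGANTCA began at -116 in Ivl, -198 in Sprr2h, -96 in Crnn and -103 in Flg, and TATAAA at -29 in Ivl, Sprr2h and Crnn and at -53 in Flg. Lce1j held neither, and the same was true of all 7 Lce1 genes that were higher. Over all 32851 RefSeq mouse promoters of this length, 7.81% held TGANTCA and 13.6% TATAAA. For the 15 of the 19 higher genes of the complex that had a promoter in the table, 8 of 16 promoters (50%) held TGANTCA and 37.5% TATAAA, and for the other tested genes of the complex 25% and 43.2%. Among all 1006 higher genes, 692 had a promoter, and 6.73% and 10.1% of these promoters held the motifs. A match describes the letters only.

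Of 12 keratins of keratinized epithelium tested, Krt16, Krt17 and Krt76 (25%) were higher in all 4 samples, beside 5.41% of all genes. With 8 samples 0 were called, and 3 were called higher without buccal mucosa replicate 2, beside 2.07% of all genes. Krt17, a keratin of appendages and of activated epidermis, was at 1302 and 1710.2 in dorsal tongue, 2191 and 1792 in hard palate, 520.1 and 20.5 in buccal mucosa and 353 and 482 CPM in ventral tongue. It passed in the 7-sample fit only (log2 fold change 2.37 and adjusted p = 0.164 in the 8-sample fit). Krt17 had a 7-sample log2 fold change of 1.89 ± 0.21 SE (adjusted p = 0.00384). Krt16, a keratin of fast-renewing epithelia, was at 3255 and 4046 in dorsal tongue, 3436 and 2629 in hard palate, 757 and 27.5 in buccal mucosa and 1062 and 1534 CPM in ventral tongue. Krt16 had a 7-sample log2 fold change of 1.74 ± 0.22 SE (adjusted p = 0.00585). Krt16 held at least 3500 UMIs in 59 sections and Krt76 in 53, so that their contrast in UMIs is compressed. In the authors' estimated transcripts Krt76 was at 30829 and 30309 CPM in hard palate and at 4136 and 5352 in dorsal tongue, against 3329 and 31.7 in buccal mucosa and 1075 and 2340 in ventral tongue. None of the 13 hair-type keratins tested separated the sides without overlap, while 2 were called higher with 8 samples and 4 with 7. The summed level of the 15 with any count was 7654 and 7652 CPM in dorsal tongue, 921.0 and 1554 in ventral tongue, 174.8 and 11.5 in buccal mucosa, and 111.2 and 113.8 in hard palate, so that it was high in dorsal tongue and not in palate. Hair keratins are near-identical in part, so that values between members are uncertain.

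Genes that hold keratinocytes together, pace their shedding and signal between them also had members that were higher on the dorsal tongue and palate side. Of 33 keratinocyte adhesion genes, 6 (18.2%) were higher in all 4 samples, beside 5.41% of all genes. Called higher were 0 with 8 samples and 7 without buccal mucosa replicate 2, beside 0.887% and 2.07% of all genes. Dsc1, the desmosomal cadherin of the upper layers, was at 56.2 and 49.9 in dorsal tongue, 56 and 53.4 in hard palate, 15.4 and 0.126 in buccal mucosa and 12.1 and 18.7 CPM in ventral tongue. For Dsc1 the 7-sample log2 fold change was 1.80 ± 0.22 SE (adjusted p = 0.005). Of 33 desquamation proteases and inhibitors, 7 (21.2%) were higher in all 4, with 2 called in 8 samples and 7 in 7 samples, where 1 was called lower. Klk5, a kallikrein that cleaves desmosomal proteins at the surface, was at 102 and 118 in dorsal tongue, 114 and 108 in hard palate, 46.3 and 0 in buccal mucosa and 49 and 81.8 CPM in ventral tongue. In Klk5 the 7-sample log2 fold change came to 0.998 ± 0.23 SE (adjusted p = 0.0486). Spink5, its inhibitor, was at 820.1 to 1076 CPM against 446 to 537 in buccal mucosa replicate 1 and ventral tongue, with buccal mucosa replicate 2 at 7.32. Spink5 had a 7-sample log2 fold change of 0.94 ± 0.16 SE (adjusted p = 0.0164). Of 20 genes of the Ly6 and Slurp family, 6 (30%) were higher in all 4. Slurp1, a secreted ligand of nicotinic receptors in epidermis, was at 559 and 618 in dorsal tongue, 901 and 953 in hard palate, 117 and 1.52 in buccal mucosa and 158 and 247 CPM in ventral tongue. Slurp2, its relative, was at 545 and 661 in dorsal tongue, 457 and 361 in hard palate, 34.6 and 0.505 in buccal mucosa and 132 and 219 CPM in ventral tongue. In 7 samples both rose (2.25 for Slurp1, adjusted p = 0.00231, and 2.67 for Slurp2, adjusted p = 0.00243). Slurp1 overlaps another annotated gene. Scaled to keratinocyte genes in 7 samples, the medians of these 3 lists were -0.07, -0.00486 and -0.04, against -0.41 for all genes, and so below 0; 2, 3 and 3 members were then called higher and 3, 6 and 4 lower.

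Among secreted signals, 4 of 17 interleukin-1 family genes (23.5%) were higher in all 4 samples and 1 was lower. Il1f5, the antagonist of the IL-36 receptor, was at 139 and 140.3 in dorsal tongue, 139.7 and 134 in hard palate, 33.4 and 0.126 in buccal mucosa and 36.1 and 47.1 CPM in ventral tongue. The 4 dorsal tongue and palate samples were nearly level, and the change passed in 7 samples. For Il1f5 the 7-sample log2 fold change was 1.88 ± 0.18 SE (adjusted p = 0.00224). Il1f6, an IL-36 agonist, was at 246 to 385 CPM against 75 to 123 in buccal mucosa replicate 1 and ventral tongue, with buccal mucosa replicate 2 at 0.379. In Il1f6 the 7-sample log2 fold change came to 1.48 ± 0.23 SE (adjusted p = 0.0128). Of 36 EGF and FGF pathway genes 4 (11.1%) were higher in all 4 samples and 0 lower, beside 5.41% and 6.04% of all genes. Ereg (epiregulin), a ligand of the EGF receptor, was at 96.7 to 122 CPM against 29.5 to 40.9 in buccal mucosa replicate 1 and ventral tongue, with buccal mucosa replicate 2 at 0.126. Ereg had a 7-sample log2 fold change of 1.74 ± 0.18 SE (adjusted p = 0.00264). Fgf22, a ligand made by keratinocytes, was at 41.8 to 59 CPM against 14.2 to 24.7 in buccal mucosa replicate 1 and ventral tongue, with buccal mucosa replicate 2 at 0.379. For Fgf22 the 7-sample log2 fold change was 1.52 ± 0.27 SE (adjusted p = 0.0205). Fgf22 overlaps another annotated gene, so its reads are uncertain. Among barrier lipid enzymes 3 of 35 (8.57%) were higher and 1 (2.86%) was lower, near the 5.41% and 6.04% of all genes. Smpd3, a neutral sphingomyelinase, was at 149 and 144 in dorsal tongue, 151 and 150.5 in hard palate, 55.1 and 23.2 in buccal mucosa and 44.3 and 63.1 CPM in ventral tongue, and rose with 8 samples. For Smpd3 the log2 fold change was 1.69 ± 0.31 SE (adjusted p = 0.0309). Liph, a lipase that makes lysophosphatidic acid, was at 7.51 to 11.7 CPM in dorsal tongue and hard palate against 13.2 to 46 and fell. For Liph the log2 fold change was -1.27 ± 0.21 SE (adjusted p = 0.0243). Another gene overlaps Smpd3.

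The BMP and TGF-beta pathway had more genes called higher with 8 samples than any other of the 36 lists examined. BMPs act through receptors that phosphorylate SMAD proteins, and the Id genes are classic targets. Of 38 genes tested, 8 were called higher and 2 lower, beside 0.887% and 3.99% of all genes, and 11 (28.9%) against 2 (5.26%) did not overlap. The 11 include Tgfa, a ligand of the EGF receptor and not of this pathway, which was not among the 8 called. Without buccal mucosa replicate 2 the calls were 9 and 2, while the median of the list was 0.07 in both fits. Scaled to keratinocyte genes in those 7 samples, 5 were higher and 4 lower.

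Bmp7, a ligand, was at 48.6 and 45.5 in dorsal tongue, 142 and 92.3 in hard palate, 16.1 and 6.31 in buccal mucosa and 20.6 and 27.6 CPM in ventral tongue, highest in palate. In Bmp7 the log2 fold change came to 2.17 ± 0.34 SE (adjusted p = 0.0189). Bambi, a decoy receptor that BMP signalling induces, was at 48.7 and 56.9 in dorsal tongue, 18.2 and 10.1 in hard palate, 4.90 and 5.93 in buccal mucosa and 3.56 and 6.54 CPM in ventral tongue, highest in dorsal tongue. Bambi had a log2 fold change of 2.38 ± 0.30 SE (adjusted p = 0.0109). Both were above every cheek and ventral tongue sample, in opposite order between the sites. Id4, of the inhibitor-of-differentiation family, was at 70.1 to 96.8 CPM in dorsal tongue and hard palate against 22.9 to 44. For Id4 the log2 fold change was 1.21 ± 0.24 SE (adjusted p = 0.0379). It overlaps another annotated gene. Scaled to keratinocyte genes it was -0.49 with 8 samples and stayed positive with 7. Id1, of the same family, was at 458 and 502 in dorsal tongue, 804 and 681 in hard palate, 291 and 60.1 in buccal mucosa and 158 and 209 CPM in ventral tongue, and passed only in 7 samples (adjusted p = 0.0968 in 8). In Id1 the 7-sample log2 fold change came to 1.36 ± 0.18 SE (adjusted p = 0.00726). Other calls in the list, chosen for naming after their values were seen, were Id2 (1.31, adjusted p = 0.0212), Id3 (1.22, adjusted p = 0.0243), the inhibitory Smad6 (1.06, adjusted p = 0.0417), the ligand Tgfb2 (0.83, adjusted p = 0.0357) and the latent binding protein Ltbp2 (2.38, adjusted p = 0.0287). The called fall was in Chrdl2, a secreted BMP antagonist (-2.84, adjusted p = 0.0221), and in the stress-induced ligand Gdf15 (-1.65, adjusted p = 0.0373).

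Of 44 Wnt pathway genes, 9 (20.5%) were higher in all 4 samples and 2 (4.55%) lower, beside 5.41% and 6.04% of all genes. Lgr6, a receptor for R-spondins found on epithelial stem cells, was at 20.8 and 30.2 in dorsal tongue, 18 and 15.8 in hard palate, 4.04 and 3.54 in buccal mucosa and 10.9 and 10.1 CPM in ventral tongue, and rose. In Lgr6 the log2 fold change came to 1.72 ± 0.21 SE (adjusted p = 0.0101). Its value was -0.16 when scaled to keratinocyte genes with 8 samples, and stayed positive when so scaled with 7. Sostdc1, a secreted antagonist of Wnt and BMP signals, was at 99.1 and 73.3 in dorsal tongue, 109 and 80.3 in hard palate, 34.5 and 9.97 in buccal mucosa and 33 and 21.1 CPM in ventral tongue, and passed in 7 samples only. Sostdc1 had a 7-sample log2 fold change of 1.55 ± 0.26 SE (adjusted p = 0.0161). Wnt5a, a non-canonical ligand, was at 69.1 and 62.5 in dorsal tongue, 57.3 and 64 in hard palate, 38.1 and 13 in buccal mucosa and 20.3 and 24.6 CPM in ventral tongue. For Wnt5a the 7-sample log2 fold change was 1.10 ± 0.17 SE (adjusted p = 0.0128). In the Notch list 0 of 23 were called higher and 2, Dlk1 and Dll4, were called lower, beside 0.887% and 3.99% of all genes. Dlk1, a non-canonical ligand, was at 4.68 and 3.83 in dorsal tongue, 5.28 and 8.25 in hard palate, 54.2 and 11.5 in buccal mucosa and 27.9 and 29.4 CPM in ventral tongue. In Dlk1 the log2 fold change came to -2.51 ± 0.48 SE (adjusted p = 0.0357). Dll4, the endothelial ligand, was at 3.30 to 7.72 CPM in dorsal tongue and hard palate against 9.17 to 11.7. Dll4 had a log2 fold change of -1.05 ± 0.21 SE (adjusted p = 0.0382). Keratinocyte transcription factors were higher in all 4 samples for 15 of 59 (25.4%) and lower for 2. Msx2, a homeobox gene downstream of BMPs, was at 36.3 and 38.9 in dorsal tongue, 58.3 and 48 in hard palate, 14.9 and 3.79 in buccal mucosa and 2.42 and 8.65 CPM in ventral tongue. For Msx2 the log2 fold change was 2.62 ± 0.54 SE (adjusted p = 0.0435). Foxn1, which drives keratinocyte differentiation and hair formation, was at 22.8 and 22.7 in dorsal tongue, 33.3 and 33.9 in hard palate, 11.6 and 1.26 in buccal mucosa and 6.72 and 9.71 CPM in ventral tongue. In Foxn1 the 7-sample log2 fold change came to 1.49 ± 0.21 SE (adjusted p = 0.00854). Scaled to keratinocyte genes in 7 samples, the medians were -0.49 for the Wnt list, -0.15 for these factors and -0.31 for the BMP list, where all genes had -0.41; in the Wnt list 3 were then called higher and 7 lower, and among the factors 7 and 8.

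Patterning factors had calls in both directions. Of 74 tested, 3 were called higher and 8 lower, beside 0.887% and 3.99% of all genes, and 7 (9.46%) against 5 (6.76%) did not overlap, beside 5.41% and 6.04%. Runx2, the master factor of bone that is also made in other mesenchyme and epithelium, was at 24.6 and 28 in dorsal tongue, 33.6 and 43.6 in hard palate, 4.04 and 10.5 in buccal mucosa and 8.19 and 10.1 CPM in ventral tongue, and rose. In Runx2 the log2 fold change came to 1.97 ± 0.33 SE (adjusted p = 0.0229). Other annotated genes overlap it. Scaled to keratinocyte genes it was -0.19 with 8 samples and stayed positive with 7. Foxc1, a forkhead factor of mesenchyme, vessels and differentiating keratinocytes, was at 6.62 and 7.33 in dorsal tongue, 12.5 and 14.7 in hard palate, 41.4 and 30.4 in buccal mucosa and 28.1 and 28.9 CPM in ventral tongue. Cheek and ventral tongue samples all lay above the others and dorsal tongue was lowest. Foxc1 had a log2 fold change of -1.72 ± 0.19 SE (adjusted p = 0.00814). For Foxc1 the 7-sample log2 fold change was -1.83 ± 0.17 SE (adjusted p = 0.00211). In epithelium-rich sections, defined below, the log2 fold change of Foxc1 was -2.04 (adjusted p = 0.0103). Mab21l2, a gene of craniofacial and eye development, was at 0 and 0.282 in dorsal tongue, 1.11 and 3.40 in hard palate, 11.3 and 6.82 in buccal mucosa and 11.6 and 12.5 CPM in ventral tongue, with 0 UMIs in 1 dorsal tongue sample. In Mab21l2 the log2 fold change came to -4.19 ± 0.68 SE (adjusted p = 0.0221). Hoxd8, of the Hox cluster that marks posterior body positions, was at 4.99 and 4.96 in dorsal tongue, 2.37 and 4.69 in hard palate, 17.5 and 84.3 in buccal mucosa and 12.3 and 9.56 CPM in ventral tongue, with 1 cheek sample far above the others. For Hoxd8 the log2 fold change was -2.48 ± 0.52 SE (adjusted p = 0.0446). Both genes overlap other annotated genes.

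Below the other side, the 15 genes that stood out most were Hhatl, Tmem233, Bglap3, Foxc1, Mab21l2, Synm, Fam57b, Itih5, Ptbp1, Ms4a4d, Prdm8, Mmp3, Hoxd8, Kcnma1 and Flot2. By edgeR's test 14 of them, chosen by the same values, passed with 8 samples and 15 of 15 without buccal mucosa replicate 2. Synm, Prdm8 and Kcnma1 overlap other annotated genes. Itih5, whose protein links to hyaluronan in the matrix, was at 18.8 and 23.7 in dorsal tongue, 14.3 and 19.8 in hard palate, 63.9 and 73.5 in buccal mucosa and 62.9 and 53.2 CPM in ventral tongue. Levels within each side lay close together, and the sides were far from overlapping. For Itih5 the log2 fold change was -1.73 ± 0.20 SE (adjusted p = 0.00917). Mmp3 (stromelysin-1), a protease that degrades matrix, was at 12.6 and 12.2 in dorsal tongue, 2.28 and 3.53 in hard palate, 24.7 and 26.6 in buccal mucosa and 31.2 and 23 CPM in ventral tongue. In Mmp3 the log2 fold change came to -2.13 ± 0.23 SE (adjusted p = 0.00754). Ms4a4d, a membrane protein of the MS4A family, was at 3.73 and 3.89 in dorsal tongue, 1.84 and 3.11 in hard palate, 13.1 and 23.5 in buccal mucosa and 11.5 and 9.0 CPM in ventral tongue. Ms4a4d had a log2 fold change of -2.15 ± 0.30 SE (adjusted p = 0.0139). Flot2, a membrane scaffold protein, was at 11.5 to 22.7 CPM in dorsal tongue and hard palate against 40.8 to 66.5. For Flot2 the log2 fold change was -1.52 ± 0.21 SE (adjusted p = 0.0124). Bglap3, a relative of osteocalcin near-identical to its neighbours, was at 11.1 and 10.3 in dorsal tongue, 4.17 and 6.31 in hard palate, 46.6 and 58.1 in buccal mucosa and 26.1 and 22.1 CPM in ventral tongue. In Bglap3 the log2 fold change came to -2.24 ± 0.22 SE (adjusted p = 0.00692). All 5 were lowest in hard palate except Itih5, whose palate and dorsal tongue samples interleaved. Ptbp1 is a splicing repressor made in most cells and its entry was at 16.7 and 26 in dorsal tongue, 3.39 and 15 in hard palate, 116 and 60.4 in buccal mucosa and 52.1 and 64.8 CPM in ventral tongue; it overlaps other genes, whose reads cannot be told apart from its own.

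Most genes of skeletal muscle were lower on the dorsal tongue and palate side. Of 45 skeletal muscle genes tested, 17 (37.8%) were lower without overlap, beside 6.04% of all genes. With 8 samples 38 were called lower and 0 higher, beside 3.99% and 0.887% of all genes. Without buccal mucosa replicate 2 the calls were 40 and 0, beside 5.72% and 2.07%. The median log2 fold change of the list was -4.04 (-3.55 in 7 samples). Palate had the lowest levels: the summed muscle level was 1134 and 568.8 CPM in hard palate, 29680 and 28600 in dorsal tongue, 47270 and 42570 in ventral tongue, and 30510 and 80160 in buccal mucosa. Hhatl, an acyltransferase relative expressed in muscle, was at 14 and 15.7 in dorsal tongue, 0.0485 and 0.0971 in hard palate, 28.3 and 87 in buccal mucosa and 28.3 and 44.4 CPM in ventral tongue. Hhatl had a log2 fold change of -5.36 ± 0.49 SE (adjusted p = 0.00692). Ryr1, the calcium release channel of skeletal muscle, was at 171 and 189 in dorsal tongue, 5.86 and 2.01 in hard palate, 296 and 655 in buccal mucosa and 402 and 355 CPM in ventral tongue. For Ryr1 the log2 fold change was -3.995 ± 0.46 SE (adjusted p = 0.0089). Des (desmin), the intermediate filament of muscle, was at 9.35 to 1179 CPM in dorsal tongue and hard palate against 1191 to 2866. In Des the log2 fold change came to -3.79 ± 0.47 SE (adjusted p = 0.0101). Dorsal tongue was lower than ventral tongue in each of these, with a smaller difference than that between palate and cheek. Among the top lower genes Tmem233 was at 3.42 and 3.66 in dorsal tongue, 0.969 and 0.324 in hard palate, 19.8 and 86.4 in buccal mucosa and 14.4 and 9.36 CPM in ventral tongue. Fam57b, a ceramide synthase-like gene that overlaps Aldoa, a glycolytic enzyme abundant in muscle, was at 5.52 and 6.09 in dorsal tongue, 1.02 and 0.582 in hard palate, 14 and 39.3 in buccal mucosa and 19.6 and 13 CPM in ventral tongue. Both had their lowest values in palate and the highest in buccal mucosa replicate 2, as muscle genes did. The part of muscle in their difference was not tested.

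Many genes of vessels and macrophages also had their lower values on the dorsal tongue and palate side. Of 24 endothelial genes, 12 (50%) were lower in all 4 samples and 0 higher, beside 6.04% and 5.41% of all genes. Called lower were 2 with 8 samples and 4 with 7, beside 3.99% and 5.72% of all genes. Pecam1, the junction protein of endothelium, was at 39.4 and 53.9 in dorsal tongue, 28.1 and 37.8 in hard palate, 65.8 and 126 in buccal mucosa and 77.8 and 75.4 CPM in ventral tongue, and passed without buccal mucosa replicate 2. Pecam1 had a 7-sample log2 fold change of -0.86 ± 0.20 SE (adjusted p = 0.0465). Esam, an endothelial adhesion molecule, was at 24.7 and 33 in dorsal tongue, 13.3 and 15.6 in hard palate, 39.9 and 65.8 in buccal mucosa and 45.2 and 45.3 CPM in ventral tongue, and fell in both fits. For Esam the log2 fold change was -1.26 ± 0.23 SE (adjusted p = 0.0293). Ackr1, the chemokine receptor of venules, was at 8.94 to 10.8 CPM in dorsal tongue and hard palate against 16.7 to 26.4. For Ackr1 the log2 fold change was -1.11 ± 0.20 SE (adjusted p = 0.0316). Another gene overlaps Ackr1. The summed endothelial level was 302.8 to 522.4 CPM in dorsal tongue and palate and 610.4 to 953.3 CPM in the other 4 samples, which do not overlap. Of 24 macrophage and dendritic cell genes, 9 (37.5%) were lower in all 4 and 0 passed with 8 samples (1 with 7). Csf1r, the receptor for macrophage growth factor, was at 28.6 and 37.2 in dorsal tongue, 14.2 and 22 in hard palate, 41.6 and 53.3 in buccal mucosa and 43.6 and 41.9 CPM in ventral tongue (adjusted p = 0.0712), and overlaps another annotated gene. Cd163, a scavenger receptor, was at 7.41 and 9.02 in dorsal tongue, 0.921 and 4.56 in hard palate, 21.1 and 27.5 in buccal mucosa and 14.4 and 16.6 CPM in ventral tongue (adjusted p = 0.0591). The summed macrophage level was 995.2 to 1426 CPM against 1286 to 2255 CPM and overlapped.

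Of 51 fibroblast and matrix genes, 2 (3.92%) were higher and 3 (5.88%) lower without overlap, near the 5.41% and 6.04% of all genes. By edgeR's test 3 were called higher and 1 lower, beside 0.887% and 3.99% of all genes. Tnn (tenascin-N), a matrix protein of periosteum, tooth sockets and dense connective tissue, was at 4.94 and 8.51 in dorsal tongue, 58 and 63 in hard palate, 0.854 and 0.379 in buccal mucosa and 1.07 and 2.62 CPM in ventral tongue. In Tnn the log2 fold change came to 4.18 ± 0.41 SE (adjusted p = 0.00692). It was highest by far in palate, and dorsal tongue was still above every cheek and ventral tongue sample. Tnxb (tenascin-X), of loose collagen matrix, was at 27.4 and 33.3 in dorsal tongue, 8.38 and 13.1 in hard palate, 55.6 and 63.4 in buccal mucosa and 37.6 and 57.4 CPM in ventral tongue, and fell. Tnxb had a log2 fold change of -1.56 ± 0.24 SE (adjusted p = 0.018). It overlaps a neighbouring gene. Loxl1, which cross-links elastin, was at 20.9 and 24.5 in dorsal tongue, 6.54 and 21.7 in hard palate, 42.7 and 54.2 in buccal mucosa and 42 and 31.9 CPM in ventral tongue, and did not pass (adjusted p = 0.115). The median log2 fold change of 16 adipocyte genes was -1.23 with that sample and 0.78 without it.

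The other lists gave few calls. With 8 samples, 0 genes were called in either direction among 22 cholesterol synthesis, 30 cell cycle, 18 immediate early and 23 Schwann cell and nerve genes, and 1, 0, 1 and 1 were called without buccal mucosa replicate 2. Of 38 antimicrobial genes 2 were called higher and 1 lower, beside 0.887% and 3.99% of all genes. Lyz1, the lysozyme of Paneth and myeloid cells, was the called fall, at 1.26 to 4.68 CPM in dorsal tongue and hard palate against 6.39 to 55.9, and is near-identical to Lyz2. Of 17 smooth muscle and pericyte genes 4 were called lower, Kcnj8, a potassium channel of pericytes, among them at 14.1 and 13.2 in dorsal tongue, 1.502 and 3.88 in hard palate, 15.9 and 28.3 in buccal mucosa and 33.1 and 22.9 CPM in ventral tongue. In Kcnj8 the log2 fold change came to -2.03 ± 0.36 SE (adjusted p = 0.0296).

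**Figure D3:**
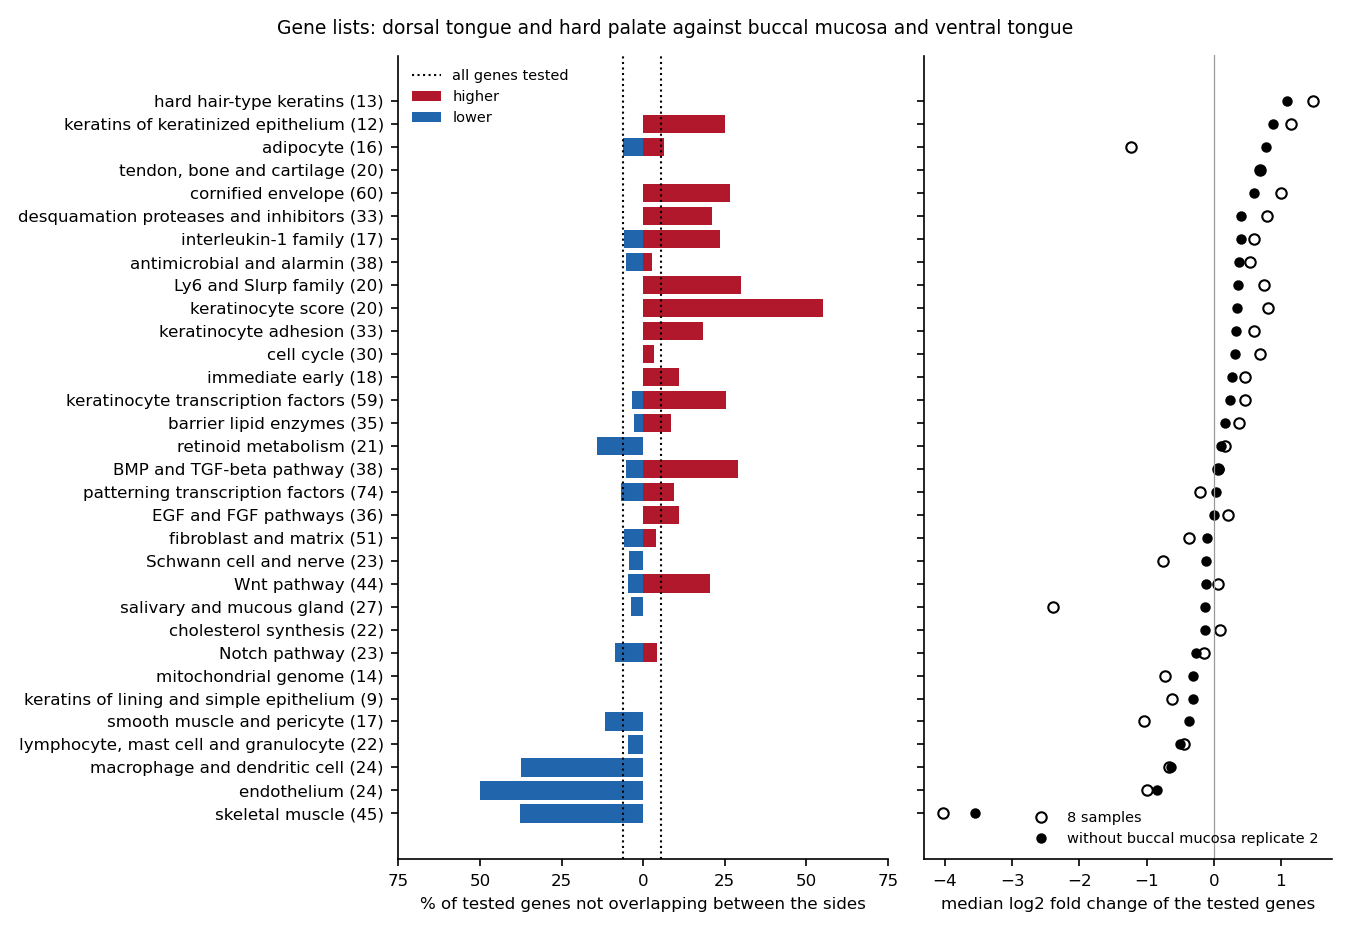
Gene lists with at least 9 tested genes: the percentage of members that did not overlap between the sides (left, dotted lines at the percentages over all genes) and the median log2 fold change (right) with 8 samples (open) and without buccal mucosa replicate 2 (filled). Keratinocyte, cornified envelope and BMP lists lie above the background on the higher side and muscle, endothelium and macrophage lists on the lower side; scaled to keratinocyte genes in 7 samples, 2 of 20, 5 of 60 and 6 of 38 members of the first 3 lists were higher and 0, 8 and 6 were lower without overlap.

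Some differences were seen only without buccal mucosa replicate 2. For 66 genes on the higher side and 91 on the lower side, each with a mean of at least 10 CPM on its higher side, all 4 dorsal tongue and palate samples were separated from the other 3 only once it was left out; 22 and 32 of them were called with 7 samples. The 8 with the largest gap on the higher side were Chad, Tesc, Cmtm8, Nedd9, Adam15, Appl2, Cxcl14 and Adcy8. None of these 8 was called with 8 samples and 8 of 8 were called with 7, as a choice by these values favours. When scaled to keratinocyte genes, all 8 turned sign with 8 samples and none did with 7. Chad and Adam15 overlap other annotated genes. Tesc, a calcium-binding protein, was at 68.9 and 76.1 in dorsal tongue, 41.4 and 46.6 in hard palate, 9.17 and 250.5 in buccal mucosa and 17.8 and 21.4 CPM in ventral tongue, so that the sample left out held the highest level of all. For Tesc the 7-sample log2 fold change was 2.07 ± 0.18 SE (adjusted p = 0.00184). Cxcl14, a chemokine of squamous epithelium, was at 64.3 and 61.8 in dorsal tongue, 193 and 112 in hard palate, 22.3 and 102 in buccal mucosa and 31 and 42.7 CPM in ventral tongue. Cxcl14 had a 7-sample log2 fold change of 1.77 ± 0.27 SE (adjusted p = 0.0113). The 8 on the lower side were Fmo9, Acsm1, Snx31, Nkx2-3, Nmu, Egln3, Col14a1 and Kbtbd11, of which 7 passed with 7 samples and Col14a1 did not (adjusted p = 0.055). Nmu, Col14a1 and Kbtbd11 overlap other annotated genes.

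Nkx2-3, a homeobox gene of oral and gut lining, was at 43.4 and 43.8 in dorsal tongue, 0.0969 and 0 in hard palate, 139 and 0 in buccal mucosa and 83.3 and 86.1 CPM in ventral tongue. Ventral tongue had more than dorsal tongue, and palate and buccal mucosa replicate 2 had next to none. Nkx2-3 had a 7-sample log2 fold change of -6.27 ± 0.36 SE (adjusted p = 0.000887). Snx31, a sorting nexin made in the surface cells of bladder, was at 0.368 and 0.451 in dorsal tongue, 1.74 and 3.36 in hard palate, 43 and 0.758 in buccal mucosa and 35.5 and 13.7 CPM in ventral tongue. For Snx31 the 7-sample log2 fold change was -4.98 ± 0.44 SE (adjusted p = 0.00184). Acsm1, an acyl-CoA synthetase of mitochondria, was at 2.31 and 3.10 in dorsal tongue, 1.36 and 1.88 in hard palate, 41.7 and 0.126 in buccal mucosa and 13.2 and 24.4 CPM in ventral tongue. In Acsm1 the 7-sample log2 fold change came to -3.74 ± 0.30 SE (adjusted p = 0.00143). Fmo9, of the flavin monooxygenase family, was at 2.42 and 2.87 in dorsal tongue, 0.145 and 1.10 in hard palate, 28.2 and 0 in buccal mucosa and 38.2 and 84.9 CPM in ventral tongue, with ventral tongue and the first cheek sample far above the rest. For Fmo9 the 7-sample log2 fold change was -4.97 ± 0.55 SE (adjusted p = 0.00348). Egln3, an oxygen-sensing prolyl hydroxylase, was at 162 and 177 in dorsal tongue, 110.5 and 153 in hard palate, 291 and 97.2 in buccal mucosa and 348 and 409.6 CPM in ventral tongue, a smaller and more even difference. In Egln3 the 7-sample log2 fold change came to -1.16 ± 0.18 SE (adjusted p = 0.0128).

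The side difference is the mean of a tongue comparison (dorsal against ventral) and a palate and cheek comparison, which share no sample. Over all 18609 genes, 12395 (66.6%) had the same sign in both, and 7497 of 10673 genes (70.2%) with a mean of at least 10 CPM did. The palate and cheek difference was the larger in 13188 genes, with a median absolute log2 fold change of 0.67 against 0.36 in the tongue. Of the 1398 genes that did not overlap between the sides with at least 10 CPM on the higher side (706 higher, 3.79%, and 692 lower, 3.72%), whose signs agree by construction, 1241 had the larger difference in palate and cheek (medians 1.28 and 0.62). In edgeR's test 231 genes (1.24%) were higher and 923 (4.96%) lower in palate than cheek. In the tongue 1 gene was higher (0.00537%), the hair-type keratin Krt33a (log2 fold change 6.75, adjusted p = 0.025), and 0 were lower, with 498 and 515 at an unadjusted p under 0.05. The tongue counts were 0 and 0 with the replicate number as a block and without any single dorsal tongue, hard palate or ventral tongue sample. They were 86 and 16 once buccal mucosa replicate 2 was left out of the shared fit, and 106 and 17 without buccal mucosa replicate 1.

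The test of the difference between these comparisons found 159 genes (0.854%) with a higher dorsal-to-ventral than palate-to-cheek change and 13 (0.0699%) with a lower one. Without any single dorsal tongue, hard palate or ventral tongue sample it found 0 in either direction (780 to 1403 genes per direction had an unadjusted p under 0.05 with 8 samples), and without buccal mucosa replicate 2 it found 408 and 57. Among named genes Hhatl (-1.29 in tongue, -9.43 in palate and cheek), Mylk2, Ryr1 and Des were among them, all genes of muscle. No such difference was called for Bambi or Bmp7. Bambi had 3.38 in tongue and 1.39 in palate and cheek, and Bmp7 had 0.97 and 3.37, with adjusted p of the difference 0.256 and 0.217. Spire1 was close to equal, with 1.85 and 1.97.

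**Figure D4:**
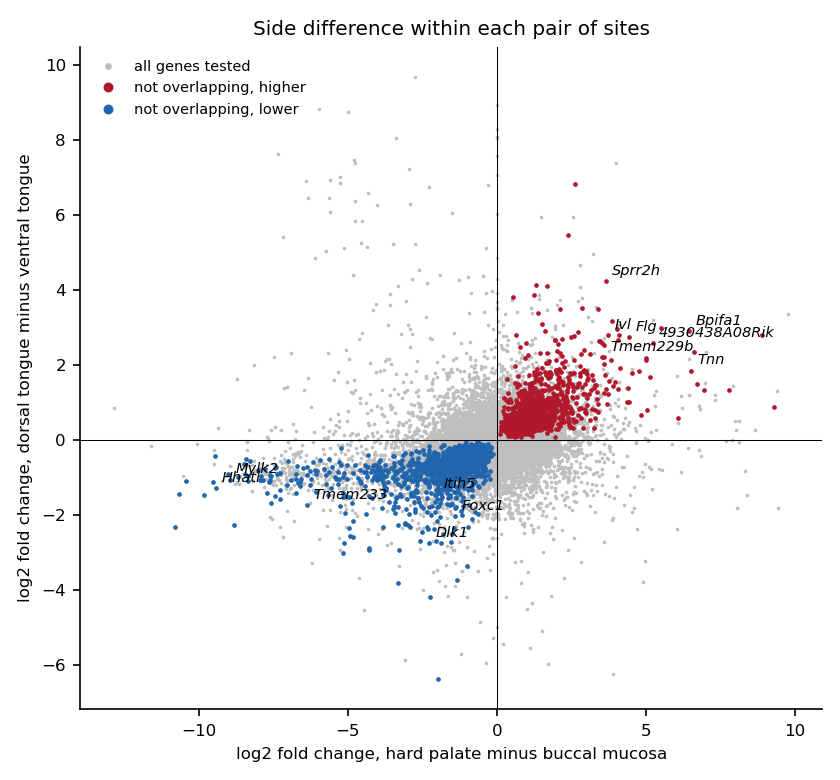
Log2 fold change of each tested gene in hard palate against buccal mucosa (horizontal) and dorsal against ventral tongue (vertical); genes that did not overlap between the sides are coloured and named genes are labelled. Coloured genes spread further along the horizontal than along the vertical axis, and muscle genes such as Hhatl lie far to the left.

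Sections of each sample were split by the mean level of the 20 keratinocyte genes into epithelium-rich and epithelium-poor ones, 4 to 13 rich sections per sample, with the fewest in buccal mucosa replicate 2. Rich and poor refer to the level of these 20 genes alone, against a threshold set within each sample. In mean log2(CPM + 1) that threshold was 4.91 in buccal mucosa replicate 2, 7.06 in ventral tongue replicate 1 and 8.60 in hard palate replicate 1. Leaving those 20 genes out, 85.3% of the 995 genes higher in dorsal tongue and palate had a median level over samples that was higher in rich sections, and 10.1% of the 1124 lower genes did, against 49.2% of all genes. All 15 top higher genes were on the rich side by their median, but only 2 of them were higher there in 7 or 8 samples. Bpifa1 had a median log2 ratio of 0.0041, with 4 samples higher in rich sections and 4 lower. Smpd3 and Cdhr1 were among the named genes with the strongest bias (median log2 ratio 0.71 and 0.70). Of the 15 top lower genes 4 were on the rich side by their median, Foxc1, Bglap3, Ptbp1 and Mmp3. The other 11 were higher in poor sections, such as Prdm8 (-0.93) and Flot2 (-0.50). In 7 or 8 samples, 7 of the 15 were lower in rich sections and 1 was higher.

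The sides were also compared in the rich sections alone, which were not matched in keratinocyte level between samples. There 111 of 16377 genes (0.678%) were higher and 440 (2.69%) lower. Of the 15 top higher genes 10 passed there, and of the 15 top lower genes 12. Tmem229b had a log2 fold change of 3.02 (edgeR, adjusted p = 0.00386), Bambi had 2.34 (adjusted p = 0.00921) and Itih5 had -2.004 (adjusted p = 0.00527). Muscle genes were lower in rich sections too, where 40 were called lower. Keratinocyte genes themselves differed between the sides: 11 of the 20 (55%, beside 5.41% of all genes) were higher in all 4 samples, with 0 called in 8 samples and 1 in 7. Krt14, the keratin of the basal layer, was the 1 called, at 2017 and 2721 in dorsal tongue, 3213 and 2385 in hard palate, 1401 and 76.4 in buccal mucosa and 1144 and 1216 CPM in ventral tongue. Krt14 had a 7-sample log2 fold change of 0.99 ± 0.20 SE (adjusted p = 0.0295). Beyond the scaling to these genes, their part in the other epithelial differences was not tested.

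**Figure D5:**
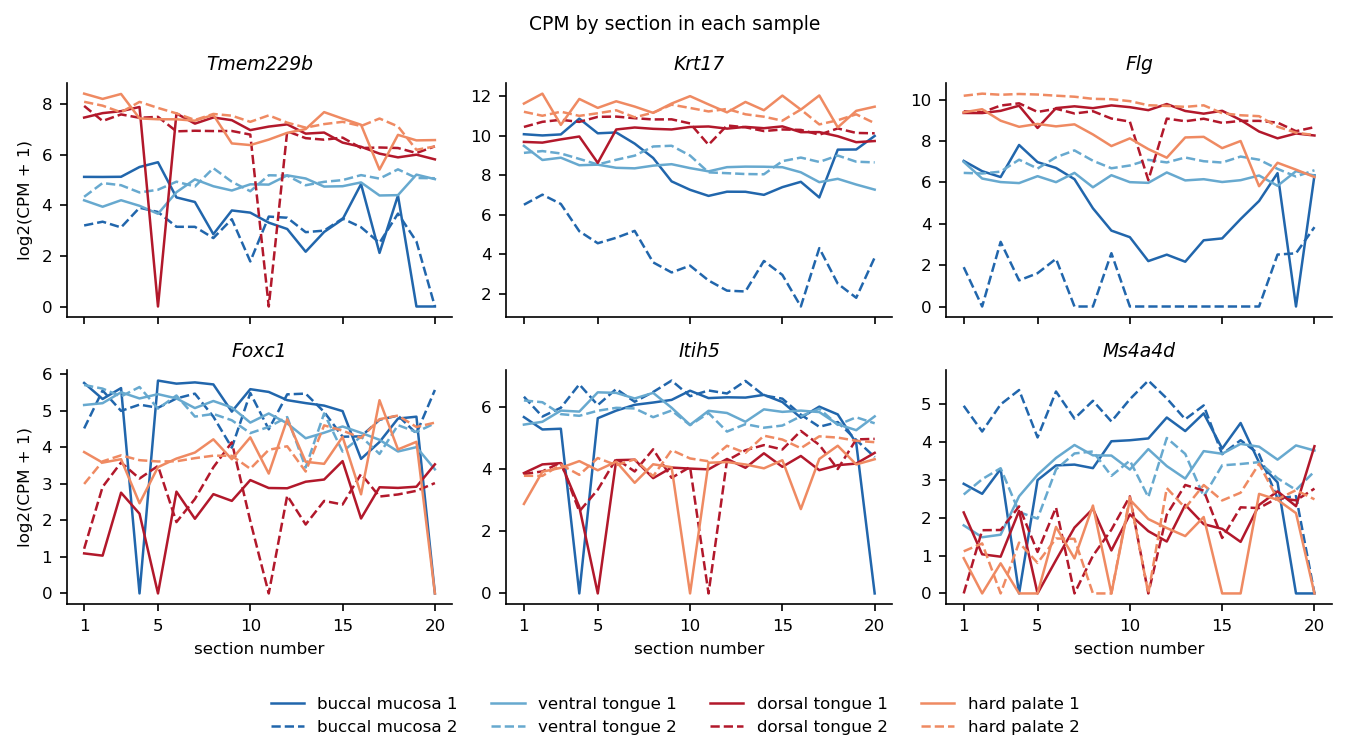
Log2 of CPM + 1 by section number in each of the 8 samples for Tmem229b, Krt17, Flg, Foxc1, Itih5 and Ms4a4d. Tmem229b lies higher in dorsal tongue and palate samples over the run of sections, and Itih5 lies lower there in most sections. Foxc1 lies lower there in the early sections, while later palate sections reach ventral tongue levels. In section 18 Foxc1 was at 14.4 and 28.3 CPM in hard palate and 13.8 and 23.4 CPM in ventral tongue.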

How the data were processed

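The members of the comparison and the gene lists were chosen with earlier results of these data known. Per the labels' protocols, RNA of single 14 µm sections was made into CEL-seq2 libraries; the submitters' processing notes list STAR 2.7.9a, Trim Galore 0.6.10 and GRCm38, with the counting program and strand setting not given in the sources used here. For each section the deposited tables give counts of distinct UMIs by gene (used throughout), counts of reads, and the authors' estimated counts of transcripts, which correct for repeated use of a UMI and were rounded before testing. Each sample's sum of UMI counts over its 20 sections was 7830471 to 26376536, with 1.91 to 2.74 reads per UMI. Of 33549 entries, 413 named several genes; these stayed in the fit and were not named.

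After filterByExpr and TMM scaling, genes were tested by the quasi-likelihood method of edgeR 4.0.16 in R 4.3.3, in a model of 4 site means, as the mean of dorsal tongue and hard palate minus the mean of buccal mucosa and ventral tongue, with Benjamini-Hochberg adjustment over 18609 genes and a threshold of 0.05. Signed log2 fold changes are dorsal tongue and palate minus the other side. The tongue and the palate and cheek contrasts and their difference came from the same fit. Genes not overlapping were compared in TMM-scaled CPM. Named were the 15 genes per direction with the largest gap between the sides (1 CPM added) and a mean of at least 10 CPM on the higher side, the 8 per direction that met this only without buccal mucosa replicate 2, up to 4 members per list that did not overlap, and 9 defining genes. Of the genes so named, 2 are not reported here. The last gene inside and the first outside had gaps of 2.37-fold (Tdh) and 2.36-fold (Flg) on the higher side, and 1.76-fold (Hhatl) and 1.71-fold (Cldn2) on the lower side. Epithelium-rich sections were those above Otsu's threshold of the sample, taken on the mean log2(CPM + 1) of 20 genes after smoothing by a 3-section running median.

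The test was checked on simulated data with known changes in 200 of 18609 genes: 0%, 44%, 82% and 98% of genes changed by 1, 2, 3 and 4 log2 units were called for the side difference with 8 samples, and 5 of 18409 unchanged genes were. With 2 samples per site, changes of 1 log2 unit are thus mostly not detectable.

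Alternatives were RLE or total scaling, scaling to keratinocyte genes, other filters, reads, estimated transcripts, DESeq2 1.42.0, a side-only model, a replicate block, and leaving out each sample. Promoters and motifs came from RefSeq (GRCm38.p6). Gene positions and overlaps came from the annotation of GRCm38.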

Additional observations from a re-analysis of the deposited data

Results flagged for a closer look

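Within a side of 4 samples, a sample was picked out when its gap to the nearest other exceeded the share of the range that Dixon's 95% critical value allows; chance alone picks about 1 in 20 groups, and 125 named genes on 2 sides were examined. Of the 43 values picked out this way, 35 belonged to buccal mucosa replicate 2, all in CPM. For 4 keratins of stratified epithelium it held 39.9 (Krt5), 76.4 (Krt14), 68.2 (Krt13) and 21.7 (Krt4), and 20.5 for Krt17 and 42.0 for Krt76. For envelope, protease and barrier genes it held 12.2 (Lor), 0 (Klk5), 1.64 (Klk8), 7.32 (Spink5), 0.126 (Lipm) and 1.52 (Slurp1), with 2.90 for Lypd3. For adhesion genes it held 12.9 (Pkp1), 6.31 (Lamb3), 0.126 (Dsc1) and 0.379 (Dsg1b). Signals and their receptors were at 0.126 (Il1f5), 0.379 (Il1f6), 0.126 (Ereg), 85.0 (Fgfr2), 0.253 (Dkkl1) and 0.379 (Nmu), and Nkx2-3 at 0. Cdhr1 and Tdh were both at 0.253, Ccnb2 at 3.41, Ier3 at 37.9 and Hspa1b at 25.5, all below the other 3 samples.

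The same sample was above the other 3 for Appl2 (217), Chad (22.1), Cmtm8 (81.1), Flot2 (66.5), Kcnma1 (73.0) and Mylk2 (105). The remaining values were 21.7 for Lypd6b in buccal mucosa replicate 1, and, in hard palate replicate 1, 64.4 for Ccnb2, 20.2 for Col14a1, 294 for Flg, 2.37 for Hoxd8, 6.54 for Loxl1 and 17.98 for Rarres2. In hard palate replicate 2 Il1f9 was at 46.6. The salivary, muscle and adipocyte levels of buccal mucosa replicate 2 (34510, 80160 and 7904 CPM) moved with these values, and their part in them was not tested.

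For 4 muscle genes the dorsal-to-ventral and palate-to-cheek changes differed in edgeR's test of the difference, by log2 8.14 (Hhatl), 7.90 (Mylk2), 6.44 (Des) and 5.85 (Ryr1), each less negative in the tongue.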

How the results depend on the processing

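RLE or total scaling, reads, estimated transcripts and the stricter filter kept the counts of genes called on each side within 1.5 times of those reported. The counts of genes higher and lower, 165 and 742, became 15 and 3024 when libraries were scaled to keratinocyte genes, which shifted the median over all genes by -1.92, and genes not overlapping became 69 and 4687. They became 1083 and 2112 with no filter, 609 and 1722 in DESeq2 and 0 and 0 in the side-only model. The lower count was 440 in epithelium-rich sections, and sections chosen by Krt5 and Krt14 alone gave 59 and 242. In 2 settings added after the data were seen, both without buccal mucosa replicate 2, keratinocyte scaling gave 2836 lower and 222 and 4771 not overlapping, and rich sections gave 290 higher. Leaving out 1 sample at a time gave 0 to 2970 higher and 0 to 2776 lower, 0 to 106 and 0 to 17 in the tongue, 18 to 2898 and 170 to 3162 in palate against cheek, and 0 to 1395 and 0 to 1358 for the difference between them. Genes not overlapping ran from 1198 to 2616 and 1187 to 2153. The highest counts came without buccal mucosa replicate 1. The lowest came without a dorsal tongue sample for the sides, without any 1 of the 6 samples outside buccal mucosa for the tongue and the difference between the pairs, without a hard palate sample in palate against cheek, and without buccal mucosa replicate 2 (higher) or hard palate replicate 1 (lower) for genes not overlapping.

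Deviations of same-numbered samples correlated at 0.54 between dorsal and ventral tongue, and at -0.21 to 0.14 in the other site pairs. In both tongue sites replicate 1 had Xist above the Y-linked genes and replicate 2 the reverse. Whether same-numbered tongue samples shared an animal is not stated, and the reported contrasts were fitted without pairing. With the replicate block, 68 genes were higher on the dorsal tongue and palate side, 108 in palate against cheek, 0 in the tongue, and 0 and 0 for the difference between the pairs.

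Signs turned for named genes as follows, in log2 units, and the cause was not tested. Scaled to keratinocyte genes with 8 samples, the values were -0.70 (Adam15), -1.18 (Adcy8), -1.74 (Appl2), -0.16 (Ccnb2), -0.48 (Chad), -1.26 (Cmtm8), -1.24 (Cxcl14), -0.96 (Fgfr2), -0.49 (Id4), -0.38 (Ier3), -0.89 (Isl1), -0.41 (Krt1), -0.40 (Krt13), -0.15 (Lamb3), -0.16 (Lgr6), -0.19 (Lor), -0.96 (Lypd6b), -1.68 (Nedd9), -1.07 (Notch2), -0.82 (Prrx2), -0.19 (Runx2), -0.023 (Spire1), -0.78 (Sptlc2), -2.21 (Tesc) and -0.12 (Wnt5a). With 7 samples they were -0.010 (Ccnb2), -0.033 (Fgfr2), -0.88 (Krt1), -0.74 (Krt13), -0.12 (Krt5), -0.65 (Lor), -0.073 (Notch2) and -0.059 (Pkp1). Krt4, near 0 as reported, was at 0.0043 with RLE, 0.032 with total scaling, 0.011 with no filter, 0.0090 with the stricter one, 0.26 in rich sections, 0.35 with the block and 0.0043 in DESeq2. Krt1 was at -0.067 in rich sections, and with 7 samples there Krt1, Krt13 and Lor were at -0.56, -0.038 and -0.063. Tesc was at -0.36 in the side-only model. Leaving out single samples gave -3.74 to 0.49 (Acsm1), -5.52 to 1.11 (Fmo9), -2.10 to 4.90 (Krt2), -0.51 to 3.36 (Krt4), -7.12 to 0.97 (Nkx2-3), -1.37 to 2.62 (Nmu), -0.23 to 2.07 (Tesc), -0.52 to 3.95 (Krt1), -0.31 to 2.77 (Krt13) and -0.24 to 3.89 (Lor).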
